A study of Mus musculus with 8 samples.

Results

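The genes described here are 43 genes of DNA replication and of entry into S phase, out of 27573 gene names measured on two-colour arrays of mouse intestine. They were chosen by name: a probe belonged to a gene if the array's gene name was the current symbol or an older alias, and the brightest probe stood for the gene. All 43 had a probe, 4 of them under an older name (Cdc45, Orc1, Orc6 and Gins2). They comprise the 6 subunits of the MCM2-7 helicase, 4 genes that activate it, 4 that load it, 5 of the sliding clamp and its loader, 7 of the polymerases and primase, 5 of nucleotide supply, 2 of Okazaki fragment maturation, 3 of single-strand binding, 4 of chromatin assembly and histone supply, and 3 regulators of the G1/S step.

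RNA was compared in 4 pairs, each hybridised to 2 arrays with the dyes swapped. In the deletion, RNA from the epithelium of Ah-Cre, Ascl2 floxed/floxed mice was set against that of Ah-Cre, Ascl2 floxed/wt mice, whose other copy is wild type, at day 3 and at day 5 after induction. Both genotypes carry Cre, so the controls can also lose 1 copy. In the sorts, GFPhi cells were set against GFPlo cells, both from Lgr5-EGFP-ires-CreERT2 mice, in which the Lgr5 promoter drives GFP. There were 2 sorts of 3 pooled mice each. The 2 arrays of a swap share both RNAs and count as 1 RNA pair, so each deletion day had 1 RNA pair and no replicate. The sources used here give no ages and no number of animals behind a deletion RNA. The p-values do not measure how deletion RNAs of the same day vary. In the main fits the spread behind them comes from the 2 sorts. Where both deletion days share 1 coefficient, it also comes from the gap between those days.

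Before a cell copies its genome, the origin recognition complex together with Cdc6 and Cdt1 loads a double hexamer of MCM2-7 onto each origin. At the start of S phase, Cdc45, the GINS complex and Mcm10 turn it into a moving helicase, and polymerases tethered by the PCNA clamp copy both strands. Most of these genes are transcribed in late G1 under E2F factors, and in the intestine they mark the crypt, where stem cells and their dividing offspring lie.

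The deletion arrays gave between 55.0% and 66.9% of spots well above background in a channel, the sort arrays between 35.5% and 44.6%. Ascl2 itself was at log2 ratios of -1.36 and -1.30 on day 3 and of -1.34 and -1.29 on day 5, deleted over control, and Lgr5 at 2.10 in sort 1 and 1.61 in sort 2, GFPhi over GFPlo. The 8 epithelium markers were all well above background in both comparisons. Each RNA pair had its own slide and scan, so slide, scan and RNA pair (hence day) cannot be told apart. The log2 ratios of all genes tested were centred, with medians between -0.01 and 0.01 in the 4 RNA pairs.

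Promoter sequence was taken from RefSeq's promoter table (GRCm38.p6), which holds windows of 250 bases before to 50 bases after the start for 36 of the 43 genes; the first window listed was used for the 4 genes with several. Mcm4, Gins1, Gins2, Rfc2, Pole, Prim2 and Ccne2 are named only. E2F sites were searched as TTTCCCGC, TTTGGCGC, TTTCGCGC and TTTGCCGC on both strands, and overlapping matches counted separately. Such a word lay in 11 of the 36 windows (30.6%), against 626 of 27025 windows of all genes (2.32%) and 411 of the 10851 windows of genes tested in the deletion (3.79%). The windows of Mcm3, Mcm5, Mcm6, Mcm7 and Rfc3 held 2 or more words, as did 27 of all 27025 windows (0.0999%). They are shown for these words, and include Mcm3 and Mcm6, which had the 2 lowest day 3 ratios below, beside Uhrf1, which had the third lowest and no such word. Each runs 5′ to 3′ from 170 bases before to 30 bases after the start, and capitals mark the E2F words on either strand.
Mcm3, chr1:20820283-20820482 (minus strand): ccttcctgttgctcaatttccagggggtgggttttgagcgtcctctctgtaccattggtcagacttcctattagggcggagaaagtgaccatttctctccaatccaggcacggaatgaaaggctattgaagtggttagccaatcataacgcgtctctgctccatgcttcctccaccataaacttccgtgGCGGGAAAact
Mcm5, chr8:75109339-75109538 (plus strand): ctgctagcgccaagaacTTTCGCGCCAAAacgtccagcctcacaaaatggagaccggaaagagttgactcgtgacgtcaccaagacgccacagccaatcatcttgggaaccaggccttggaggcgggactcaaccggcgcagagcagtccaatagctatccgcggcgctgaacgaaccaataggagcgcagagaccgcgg
Mcm6, chr1:128359676-128359875 (minus strand): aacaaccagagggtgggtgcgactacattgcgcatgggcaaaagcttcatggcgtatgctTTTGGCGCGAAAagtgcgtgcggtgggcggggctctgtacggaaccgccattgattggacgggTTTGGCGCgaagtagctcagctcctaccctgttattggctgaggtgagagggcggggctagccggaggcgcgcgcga
Mcm7, chr5:138171854-138172053 (minus strand): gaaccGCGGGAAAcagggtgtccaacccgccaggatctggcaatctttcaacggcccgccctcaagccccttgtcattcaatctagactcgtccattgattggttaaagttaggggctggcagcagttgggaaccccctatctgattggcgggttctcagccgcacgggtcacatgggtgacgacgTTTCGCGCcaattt
Rfc3, chr5:151651179-151651378 (minus strand): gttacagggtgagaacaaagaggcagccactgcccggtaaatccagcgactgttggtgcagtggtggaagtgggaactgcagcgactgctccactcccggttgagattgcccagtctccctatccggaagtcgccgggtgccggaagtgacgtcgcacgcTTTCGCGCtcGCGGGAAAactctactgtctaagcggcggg
Uhrf1, chr17:56303167-56303366 (plus strand): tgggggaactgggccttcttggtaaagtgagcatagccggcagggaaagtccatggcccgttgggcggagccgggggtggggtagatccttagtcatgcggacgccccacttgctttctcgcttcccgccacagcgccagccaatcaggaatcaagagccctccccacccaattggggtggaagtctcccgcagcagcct
In Mcm5 and at the first place in Mcm6, a word on each strand overlaps into 1 run of capitals, and the other word of Mcm3 begins 39 bases after the start, outside the stretch shown. Cdc6, Cdt1, Orc1, Pola1, Pold1 and Pole2 each held 1 word. The CCAAT box (CCAAT) lay in 21 of the 36 windows (58.3%, against 37.9% of all windows and 38.7% of those of genes tested). The GC box (GGGCGG) lay in 27 (75.0%, against 35.9% of all windows and 60.5% of those of genes tested). The CHR words TTTGAA or TTCGAA, known from genes of later cell cycle phases, lay in 5 (13.9%, against 19.4% of all windows and 14.6% of those of genes tested). The median day 3 log2 ratio was -1.08 for the 11 genes with an E2F word and -1.10 for the 25 without, with ranges of -1.71 to -0.53 and of -1.34 to -0.47. These matches describe the letters in the windows and show no binding. Only exact words in 1 window per gene were counted, so the genes without such a word may hold other E2F sites.

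The first comparison asked how the genes stood in Ascl2-deleted epithelium on day 3. Every one of the 43 genes had a lower signal in deleted than in control RNA on both arrays, where 39.5% of all genes tested did. The median log2 ratio was -1.10, with a range of -1.71 to -0.46, against a median of 0.00 over all genes tested. Of the 43, 26 lay at or past 2-fold lower on both of its arrays, against 1.71% of all genes tested, and they made up 26 of the 272 genes past that mark. With 1 RNA pair this is a description of 2 RNAs, with no test. In whole epithelium, fewer cells making a transcript and less of it per cell cannot be told apart.

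On day 5 the same genes lay near the control. The median log2 ratio was -0.07, with a range of -0.32 to 0.26, and 0 of the 43 were 2-fold lower on both arrays, against 0.712% of all genes tested. The sign was mixed: 18 genes were below 0 on both arrays, against 34.9% of all genes tested, and the mean of the 2 arrays was above 0 for 17. Both day 3 arrays lay below both day 5 arrays for 42 of the 43 genes, against 34.8% of all genes tested. Rfc2 was the exception.

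**Figure D1:**
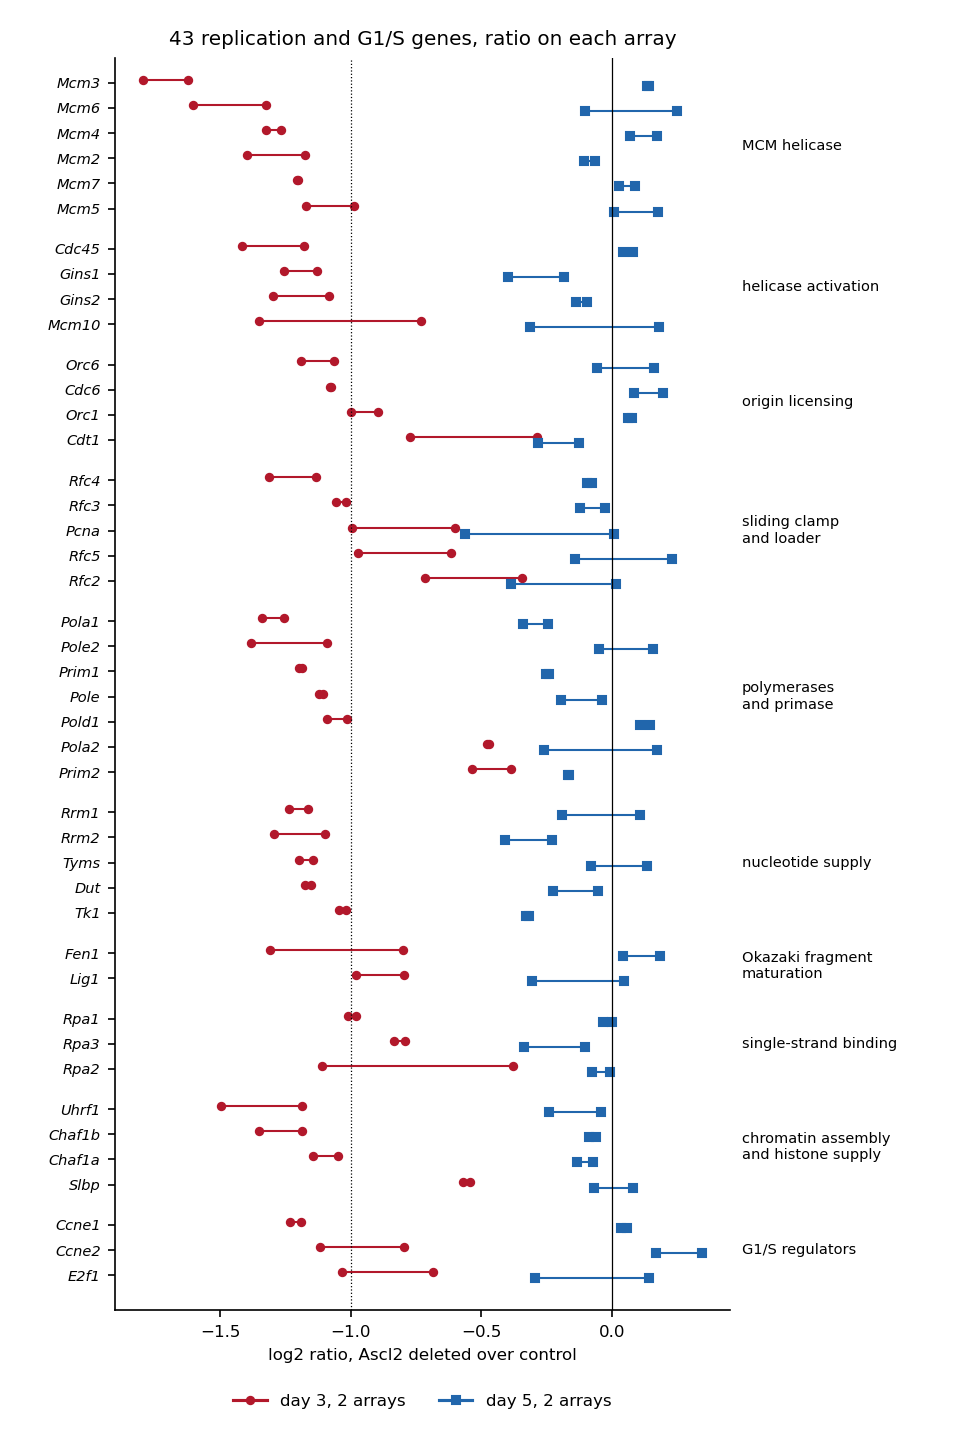
Log2 ratio, Ascl2 deleted over control, of each of the 43 genes (rows, grouped by role) on the 2 dye-swapped arrays of day 3 (red circles) and of day 5 (blue squares), joined by a line. The dotted line marks a 2-fold lower signal. All day 3 circles lie below 0, and the day 5 squares lie on both sides of it.

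The day difference was tested with limma, with a coefficient for each day and the spread between RNA pairs taken from the 2 sorts, which assumes that a deletion pair varies as the sorts do. Of the 41 genes that could be tested, 29 were lower on day 3 (adjusted p between 0.0109 and 0.0472), against 14.4% of all 10306 genes tested, and 0 were higher. Their median difference, day 3 minus day 5, was -1.004 over the 41 genes and -0.05 over all genes tested. The other 12 differed in the same direction by -0.30 to -1.42 and did not pass. Orc1 and Ccne2 were not well above background in either sorted RNA and were not tested. The count changed with the signal used, for a cause that was not tested. It was 13 with the authors' deposited matrix values and 1, Mcm3, with the scanner's own processed signals, although the median day 3 ratio was -1.16 and -1.14 there. Over all genes tested, 533 were lower on day 3 with the matrix values and 149 with the scanner's signals, against 1486 in the main fit.

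The 6 MCM genes encode the ring-shaped helicase that unwinds DNA at the fork, and they held the 2 lowest day 3 ratios of the 43. Mcm3 had log2 ratios of -1.80 and -1.62 on the day 3 arrays and of 0.13 and 0.14 on the day 5 arrays. Its signal was thus 3.27-fold lower in deleted than in control RNA on day 3, and the days do not overlap. The day difference was -1.85 ± 0.24 (SE, limma adjusted p = 0.0126). Its probe lies at chr1:20788189-20788248 (mm8, per the file headers), and a dimmer probe of the gene gave -1.24 on day 3.

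Mcm6 had ratios of -1.61 and -1.32 on day 3 and of -0.10 and 0.25 on day 5, a difference of -1.54 ± 0.18 (limma adjusted p = 0.0115). Mcm2 had -1.40 and -1.18 on day 3 and -0.07 and -0.11 on day 5 (difference -1.20 ± 0.15, limma adjusted p = 0.0123). In both genes the day 3 arrays stand well clear of those of day 5. Mcm7 had -1.20 and -1.21 on day 3 and 0.09 and 0.03 on day 5 (difference -1.26 ± 0.19, limma adjusted p = 0.0166). Mcm5, with the smallest day 3 ratio of the 6, had -0.99 and -1.17 on day 3 and 0.01 and 0.18 on day 5 (difference -1.17 ± 0.16, limma adjusted p = 0.0136). Mcm4 showed the same gap, with -1.32 and -1.27 on day 3 and 0.17 and 0.07 on day 5, but its difference of -1.42 ± 0.41 did not pass (limma adjusted p = 0.0653). The sorts, from which the spread was taken, lay far apart for Mcm4, at 0.51 in sort 1 and -0.36 in sort 2.

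Loading and activation of the helicase gave similar values with 1 exception. Cdc6, the ATPase that recruits the ring to origins, had -1.08 on both day 3 arrays and 0.19 and 0.08 on day 5 (difference -1.22 ± 0.14, limma adjusted p = 0.0114). Cdt1, its partner in loading, had only -0.29 and -0.77 on day 3, its arrays lying far apart, and -0.28 and -0.13 on day 5, a difference of -0.33 ± 0.19 that did not pass (limma adjusted p = 0.273). Cdt1 is known to be controlled by destruction of its protein in S phase. Of the origin recognition subunits, Orc6 passed at -1.18 and Orc1, untested, had -0.9998 and -0.90 on day 3 and 0.08 and 0.06 on day 5. Among the activators, Cdc45 had -1.18 and -1.42 on day 3 and 0.08 and 0.04 on day 5, with the lowest adjusted p of the 41 genes tested (difference -1.36 ± 0.15, limma adjusted p = 0.0109). Its signal was low in the sorts, at 230 in GFPhi and 213 in GFPlo in sort 1 and at 286 and 288 in sort 2. The B cell marker Cd79a, whose probe was not well above background there, was at 211 and 216 and at 202 and 203. Whether low signal narrowed the spread taken from the sorts was not tested. Mcm10, which joins the helicase to the polymerases, had less even values, with -0.73 and -1.35 on day 3 and -0.31 and 0.18 on day 5 (difference -0.98 ± 0.23, limma adjusted p = 0.0414). The GINS subunits Gins1 and Gins2 passed at -0.90 and -1.07.

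The clamp and its loader were more mixed, with a median day 3 ratio of -0.80 against -1.29 for the MCM helicase. Pcna, the clamp itself and a common marker of dividing cells, had -0.99 and -0.60 on the day 3 arrays and 0.01 and -0.56 on those of day 5. The lower array of day 5 nearly met the higher one of day 3, and the difference of -0.52 ± 0.28 did not pass (limma adjusted p = 0.227). Its spots were not marked as saturated on any array. The loader subunits Rfc3, Rfc4 and Rfc5 passed at -0.96, -1.14 and -0.84. Rfc2 did not, with -0.35 and -0.72 on day 3 and -0.39 and 0.01 on day 5, values that overlap (difference -0.34 ± 0.18, limma adjusted p = 0.216).

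Of the 7 polymerase and primase genes, 4 passed: the catalytic subunits Pola1 (-1.004), Pold1 (-1.18) and Pole (-0.997), and Pole2, the second subunit of polymerase epsilon (-1.29), all as day 3 minus day 5. Prim1, the small primase subunit, had -1.20 and -1.19 on day 3 and -0.25 and -0.24 on day 5 and did not pass (limma adjusted p = 0.0704). The remaining 2 had the smallest day 3 ratios of all 43 genes. Pola2, the accessory subunit of polymerase alpha, had -0.47 and -0.48 on day 3 and 0.17 and -0.26 on day 5. Prim2, the large primase subunit, had -0.39 and -0.54 on day 3 and -0.17 and -0.16 on day 5 (difference -0.30 ± 0.18, limma adjusted p = 0.281). The Prim2 probe also differed more in level between the days than any other of the 43, in both RNAs, at 125 in deleted and 172 in control RNA on day 3 and at 3508 in deleted and 3934 in control RNA on day 5, on the scale of background-corrected signal. It was well above background on both arrays of each day in both RNAs, but on day 3 it lay near the level of Cd79a, whose probe was not (117 in deleted and 118 in control RNA).

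Genes that supply nucleotides had closely similar day 3 ratios, with all 5 at least 2-fold lower on both arrays. Rrm2, the S phase subunit of ribonucleotide reductase, had -1.29 and -1.10 on day 3 and -0.23 and -0.41 on day 5 (difference -0.88 ± 0.14, limma adjusted p = 0.0178), and Rrm1, its partner, had -1.16 and -1.24 on day 3 and -0.19 and 0.11 on day 5 (difference -1.16 ± 0.23, limma adjusted p = 0.0264). Tyms, which makes thymidylate, had -1.14 and -1.20 on day 3 and -0.08 and 0.13 on day 5 (difference -1.20 ± 0.27, limma adjusted p = 0.036). Dut, which removes dUTP, passed at -1.02. Tk1, the salvage kinase for thymidine, had -1.05 and -1.02 on day 3 but also kept the lowest day 5 ratio of the 43 genes, at -0.33 and -0.32, and did not pass (difference -0.71 ± 0.25, limma adjusted p = 0.0965). Rrm2 and Pola1 followed with day 5 means of -0.32 and -0.29.

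Among the genes that finish and package the new strands, the flap nuclease gene Fen1 passed at -1.17, and Lig1, the ligase that seals Okazaki fragments, was at -0.76 and did not (limma adjusted p = 0.0977). Of the single-strand binding trimer, Rpa1 (-0.98) and Rpa3 (-0.59) passed and Rpa2 did not, with day 3 arrays far apart at -0.38 and -1.11. The 2 large subunits of chromatin assembly factor 1, Chaf1a and Chaf1b, passed at -0.99 and -1.19. Uhrf1, which brings the maintenance methyltransferase to new DNA, had the third lowest day 3 ratio, with -1.19 and -1.50 on day 3 and -0.24 and -0.04 on day 5 (difference -1.20 ± 0.24, limma adjusted p = 0.0281). Slbp, which binds the histone mRNA stem-loop, had even arrays of -0.54 and -0.57 on day 3 and of 0.08 and -0.07 on day 5, a smaller gap that did not pass (difference -0.56 ± 0.26, limma adjusted p = 0.169).

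The regulators of the step itself lay in the same range. Ccne1, a cyclin that activates Cdk2 in late G1, had -1.23 and -1.19 on day 3 and 0.04 and 0.06 on day 5 (difference -1.26 ± 0.14, limma adjusted p = 0.0114). Ccne2, the second cyclin E gene, had -1.12 and -0.80 on day 3 and the highest day 5 ratios of the 43, at 0.34 and 0.17. E2f1, a transcription factor that activates many of these genes, had -1.03 and -0.68 on day 3 and 0.14 and -0.30 on day 5, and its difference of -0.78 ± 0.20 lay just outside the threshold of 0.05 (limma adjusted p = 0.0505).

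Probes above background other than the brightest one gave the same sign. Of the 17 genes with more than 1 probe, 12 had more than 1 well above background in the deletion, and in all 12 the probes shared a sign on day 3, with a widest gap of 0.467 in log2 (Mcm3).

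**Figure D2:**
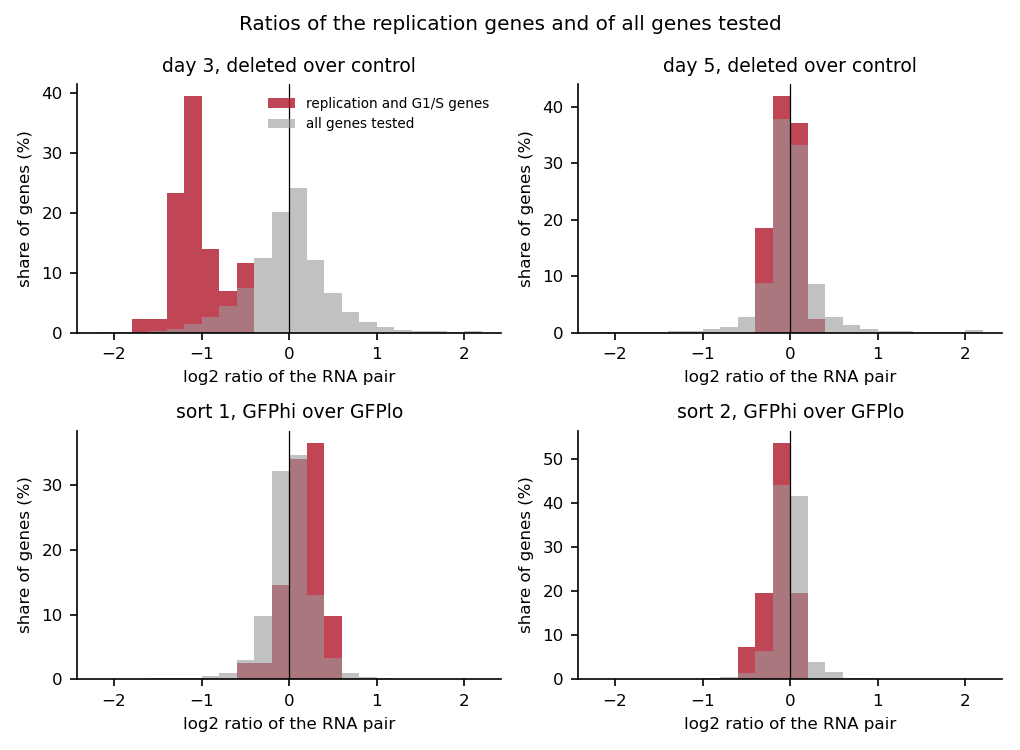
Share of genes (percent, vertical axis) by log2 ratio in steps of 0.2 for the replication and G1/S genes (red, 43 in the deletion and 41 in the sorts) and all genes tested (grey), in each of the 4 RNA pairs; values beyond the ends are counted in the end bins. The red bars lie left of the grey ones on day 3, with a median of -1.10, and overlap them on day 5 and in the sorts.

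Fitted over both days together, the deletion gave no call. The mean log2 ratio had a median of -0.57 over the 43 genes, from -0.80 (Pola1), -0.79 (Mcm3) and -0.76 (Rrm2) to -0.31 (Prim2), -0.28 (Slbp) and -0.26 (Pola2). By limma 0 of the 43 passed (adjusted p between 0.508 and 0.663), as did 0% of all 15878 genes tested. At an unadjusted p under 0.05 there were 5 of the 43 (Gins1, Pola1, Rrm2, Tk1 and Rpa3) and 1521 of the 15878 genes tested, a similar share. In this fit the gap between the days enters the spread. With day 5 left out, so that day 3 was judged by the spread of the sorts alone, 42 of the 43 genes passed, as did 6114 of all genes; with day 3 left out, 0 of the 43 and 1187 of all genes did.

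The level of each gene was also set side by side between the days within each RNA. In deleted RNA, 42 of the 43 genes had a lower level on day 3 than on day 5, as did 54.2% of all genes tested, with a median log2 difference of -1.23, and 31 were at least 2-fold lower, against 7.81% of all genes tested. In control RNA, 28 of the 43 were lower on day 3, as were 52.4% of all genes tested, with a median of -0.21, and 2 (Pola1 and Prim2) were at least 2-fold lower, against 2.49% of all genes tested. Over all genes tested, the median differences were -0.05 in deleted and -0.03 in control RNA. Mcm3 was at 4702 in deleted and 15385 in control RNA on day 3, and at 19912 in deleted and 18093 in control RNA on day 5, so its deleted RNA of day 3 stood apart from the other RNAs. Ccne1 likewise had its lowest level in the deleted RNA of day 3, at 2012 in deleted and 4664 in control RNA on day 3 and 4478 in deleted and 4337 in control RNA on day 5. These levels set different slides against each other and carry no test.

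**Figure D3:**
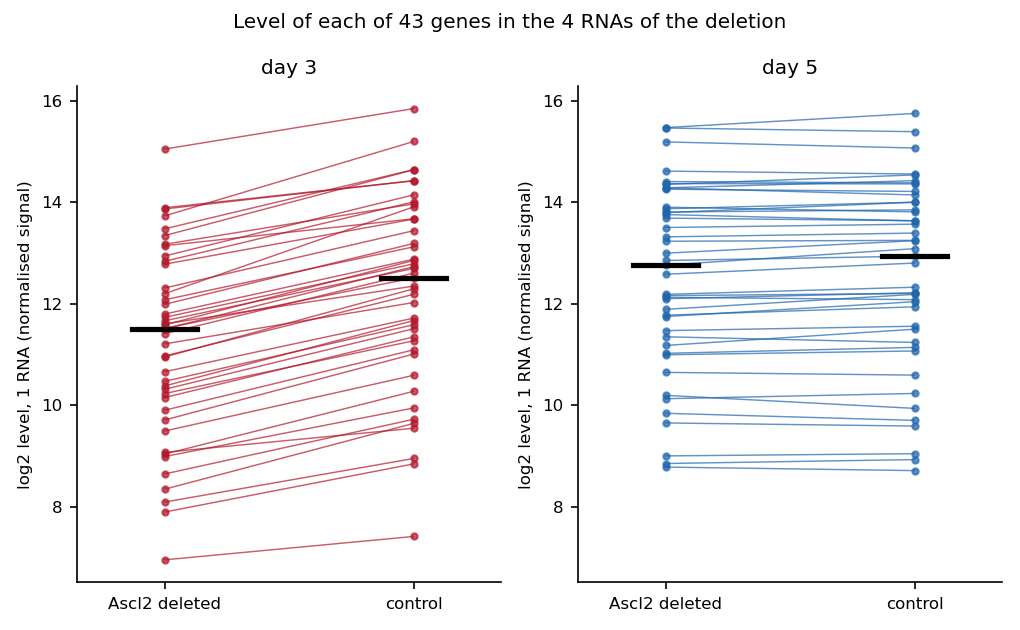
Log2 of the normalised signal (vertical axis) of each of the 43 genes in the deleted and control RNA of day 3 (left panel) and day 5 (right panel); thin lines join the 2 RNAs of a gene and black bars are medians over genes. On day 3 the deleted end of every line is the lower one, and on day 5 the lines run nearly level.

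Most replication genes outside the 43 were also below the control on day 3. Of 47 other replication and S phase genes, 45 had a ratio below 0 on day 3 and 24 on day 5, with medians of -0.77 and -0.03, and 21 of the 41 tested were lower on day 3 than on day 5 while 1 was higher. The largest differences were those of the exonuclease gene Exo1 (-1.52 on day 3 and 0.02 on day 5), the fork protection genes Tipin (-1.30 and 0.16) and Timeless (-1.44 and -0.11), the histone chaperone gene Asf1b (-1.26 and 0.16), Hells (-1.23 and 0.03) and Rad51ap1 (-1.26 and -0.05), and all of these passed. Pold4, a small subunit of polymerase delta, was the one that was higher and is named after its value was seen, with 0.52 on day 3 and -0.14 on day 5. Of the 26 other genes of nucleotide supply, 25 were tested in the deletion, with a median of -0.95 on day 3 and of 0.00 on day 5. Lower on day 3 were 18 of the 24 tested for the day difference and 0 were higher, led by Cad, which starts pyrimidine synthesis (-1.17 and 0.35), Atic, of purine synthesis (-1.16 and 0.25), and Ctps (-1.25 and 0.10).

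The regulators upstream of the step did not share 1 direction. Of 30 G1/S regulators and inhibitors, 29 were tested in the deletion, with a median of -0.15 on day 3 and 0.01 on day 5; 8 of the 24 tested for the day difference were lower on day 3 and 2 were higher. Among the lower ones, Ccnd1, a D-type cyclin, was at -1.32 on day 3 and at 0.72 on day 5 (adjusted p = 0.00574 by limma), and Myc at -1.32 and 0.01 (limma adjusted p = 0.0113). E2f7 and E2f8, repressors of the E2F family, were at -1.27 and -1.22 on day 3 and at -0.05 and 0.02 on day 5, and both passed. The higher ones were inhibitors of cyclin-dependent kinases: Cdkn1b at 0.996 on day 3 and at -0.15 on day 5 (adjusted p = 0.0189 by limma), and Cdkn2d, named after its value was seen, at 0.57 and -0.12 (limma adjusted p = 0.0399). Other such inhibitors, also named after their values were seen, did not pass. Cdkn2b was at 0.64 on day 3 and 0.22 on day 5, Cdkn2c at -0.32 and -0.24 and Cdkn1c at -0.10 and -0.33. Cdkn2a was not tested. Of the 20 p53 targets and genes of G1 arrest, 18 were tested in the deletion, with a median of 0.20 on day 3 and of 0.11 on day 5, and 2 of 14 were lower and 4 higher on day 3. Cdkn1a, a kinase inhibitor gene named for that role, was at 0.82 on day 3 and at 0.05 on day 5 and did not pass (limma adjusted p = 0.183).

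Genes of mitosis and markers of other cells also differed between the days, and their part in the result was not tested. All 42 genes of the G2/M list had day 3 ratios below 0, with a median of -1.05 on day 3 and of 0.02 on day 5, and 32 of the 37 tested were lower on day 3, Mki67 among them (-1.22 and 0.09). The summed level of the 10 crypt base stem cell markers was 10740 in deleted and 27900 in control RNA on day 3, and 23460 in deleted and 56540 in control RNA on day 5. Their median log2 ratio was -1.08 on day 3 and -0.44 on day 5, against -1.10 and -0.07 for the 43 replication genes. The 11 Paneth markers summed to 535600 in deleted and 1455000 in control RNA on day 3 and to 1247000 in deleted and 1224000 in control RNA on day 5, and 9 of the 11 were lower on day 3. The 6 T cell markers summed to 72030 in deleted and 24930 in control RNA on day 3 and to 85140 in deleted and 80700 in control RNA on day 5. The 6 goblet markers summed to 889500 in deleted and 358100 in control RNA on day 3, against 491000 in deleted and 581100 in control RNA on day 5. The 11 enterocyte markers summed to 1205000 in deleted and 789700 in control RNA on day 3 and to 742100 in deleted and 966200 in control RNA on day 5. Their median log2 ratio was 0.66 on day 3 and -0.44 on day 5, and 6 of the 10 tested were higher on day 3, the opposite direction to the replication genes.

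The 5 fibroblast markers tested, among them the collagen genes Col1a1, Col1a2 and Col3a1, summed to 4881 in deleted and 5398 in control RNA on day 3 and to 44300 in deleted and 3677 in control RNA on day 5, with Pdgfra not well above background. Their median log2 ratio was -0.74 on day 3 and 4.68 on day 5. The deleted RNA of day 5, in which the replication genes lay near the control, also held far more of these transcripts. The epithelium markers had a median of 0.19 on day 3 and of 0.04 on day 5.

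**Figure D4:**
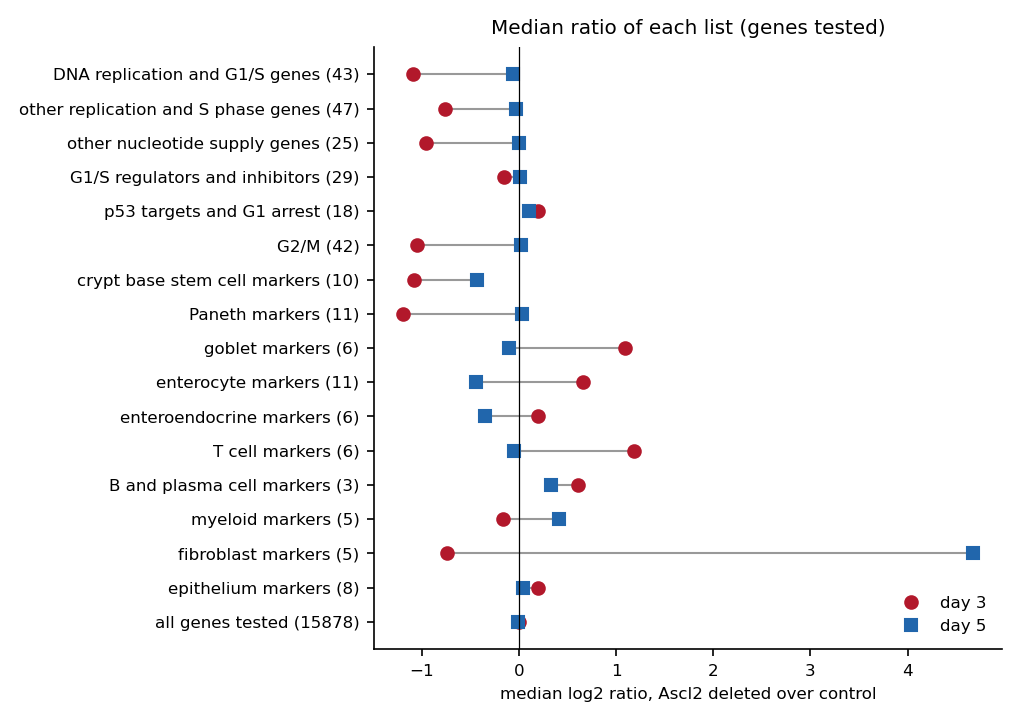
Median log2 ratio, Ascl2 deleted over control, of each gene list on day 3 (red circles) and day 5 (blue squares); the number of genes tested stands in parentheses. The 43 replication genes lie at -1.10 on day 3 and -0.07 on day 5, near the G2/M list (-1.05 and 0.02), while the fibroblast markers reach 4.68 on day 5.

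The second comparison asked whether these genes differ between GFPhi cells, which hold the Lgr5 stem cells, and GFPlo cells. The 41 genes tested lay close to no difference: their mean log2 ratio over the sorts had a median of 0.01, with a range of -0.43 to 0.25. Some had low signal in the sorts, such as Pola1, at 240 in both RNAs of sort 2. Cd79a, not well above background, was at 202 in GFPhi and 203 in GFPlo there. For such genes a ratio near 0 does not show equal levels. By limma 0 of the 41 passed, as did 0% of all 10431 genes tested, and at an unadjusted p under 0.05 there were 0 of the 41 and 474 of all genes. With the sorts fitted alone, which leaves out the wide gap between the deletion days, 0 of the 41 passed (adjusted p between 0.0836 and 0.987), against 0.7% of all genes tested. In the same cells the stem cell markers had medians of 0.88 in sort 1 and 0.58 in sort 2, and the goblet markers -1.85 in sort 1 and -1.62 in sort 2.

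The genes lay lower in sort 2 than in sort 1. The median was 0.16 in sort 1 and -0.08 in sort 2, and 33 of the 41 genes were above 0 in sort 1 (52.6% of all genes tested) but 8 in sort 2 (47.6% of all genes tested). For 36 of the 41 (87.8%) sort 1 gave the higher ratio, as for 55.2% of all genes tested, and 26 of the 41 (63.4%) were above 0 in sort 1 and below 0 in sort 2, as were 18% of all genes. The median SD between the sorts was 0.22 for the 41 genes and 0.08 for all genes tested in both comparisons. Tk1 is an example in which each dye swap held: GFPhi over GFPlo was 0.22 and 0.20 in sort 1 and -0.23 and -0.26 in sort 2. Mcm4 was likewise at 0.45 and 0.57 in sort 1 and at -0.62 and -0.11 in sort 2. The G2/M list showed medians of 0.18 and -0.03 in sorts 1 and 2.

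In GFPhi cells, 5 of 41 genes were lower on all 4 arrays (Cdc6, Rrm2, Fen1, Rpa3 and Ccne1), against 17.3% of all genes tested. Another 4 were higher on all 4 (Mcm5, Cdt1, Rfc2 and Pold1), against 16.5%. Both shares were below those of all genes tested, and some of the named genes lay near 0. Cdc6 was at -0.03 and -0.10 in sort 1 and at -0.09 and -0.03 in sort 2. Cdt1 was at 0.02 and 0.03 in sort 2. Ccne1 had the lowest mean, with -0.58 and -0.37 in sort 1 and -0.53 and -0.23 in sort 2 (mean -0.43 ± 0.31, SE of the joint fit; limma adjusted p = 0.0836 with the sorts fitted alone). Slbp came next at -0.36 but had 1 array above 0, with -0.35 and 0.11 in sort 1 and -0.77 and -0.43 in sort 2. Pold1 had the highest mean, with 0.36 and 0.45 in sort 1 and 0.10 and 0.07 in sort 2 (mean 0.25 ± 0.30, SE of the joint fit; limma adjusted p = 0.351 with the sorts fitted alone). Rfc3, Pole2 and Lig1 had the means nearest to 0, each within 0.01. Of these, Rfc3 and Pole2 had low signal, at 300 and 243 in GFPhi cells of sort 1, where Lig1 was at 3116. Lig1 was at 0.26 in sort 1 and at -0.25 in sort 2, so its mean near 0 averages opposite signs. Pcna, with -0.07 and 0.26 in sort 1 and -0.54 and -0.34 in sort 2, gave no steady direction.

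**Figure D5:**
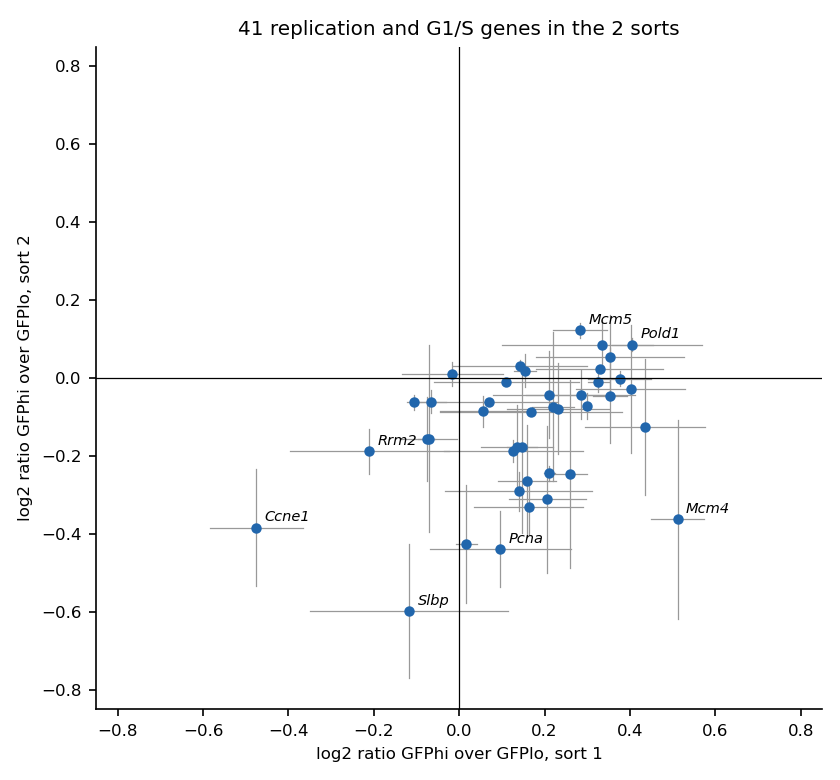
Log2 ratio GFPhi over GFPlo of the 41 genes in sort 1 (horizontal axis) and sort 2 (vertical axis); points are means of the 2 dye-swapped arrays and grey lines span them. Most points lie right of 0 in sort 1 and below 0 in sort 2, and Ccne1, at -0.48 and -0.38, lies low in both.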

How the data were processed

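RNA was compared on 8 two-colour arrays. Per the file headers, Feature Extraction 9.5.3.1 gave spot intensity values for both channels, its own processed signals with their log10 ratio (used to find the direction of the matrix), and probe positions on mm8. The deposited series matrix holds the authors' log2 ratios, already turned to deleted over control or GFPhi over GFPlo; whether they were centred is unknown, and their medians ran from -0.02 to 0.03.

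The mean intensity was corrected with normexp (offset 50) and loess in limma 3.58.1 (R 4.3.3), control spots (1639 of 45018 features) having weight 0 and outlier spots left out. Ratios were turned by the dyes in the labels, spots of a probe averaged (41174 probes) and the 2 arrays of a dye swap averaged to 1 RNA pair. Probes were named through RefSeq accessions and synonyms where they matched. A gene was tested where all arrays of 1 or both RNAs had its brightest probe well above background, with lmFit and eBayes over all 4 RNA pairs and Benjamini-Hochberg adjustment (threshold 0.05, two-sided). Channel levels followed loess and Aquantile. The fit was checked on simulated data.

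The members and gene lists were chosen with earlier results of these data known. Values per array are given for named members, chosen for their role, and for the 3 largest and 3 smallest in each comparison; other lists name up to 6 genes with the largest day difference. The number of arrays limits the precision.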

Additional observations from a re-analysis of the deposited data

Results flagged for a closer look

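By the limma test of the day difference itself, 29 of the 41 genes tested were lower on day 3, against 14.4% of all 10306 genes tested. Each day had 1 RNA pair. The values are the log2 ratio of day 3 minus that of day 5, deleted over control. In the MCM helicase, Mcm2, Mcm3, Mcm5, Mcm6 and Mcm7 were at -1.2, -1.85, -1.17, -1.54 and -1.26. In helicase activation, Mcm10, Cdc45, Gins1 and Gins2 were at -0.976, -1.36, -0.901 and -1.07. In origin licensing, Cdc6 and Orc6 were at -1.22 and -1.18. In the clamp loader, Rfc3, Rfc4 and Rfc5 were at -0.963, -1.14 and -0.839. In the polymerases, Pola1, Pold1, Pole and Pole2 were at -1, -1.18, -0.997 and -1.29. In nucleotide supply, Rrm1, Rrm2, Tyms and Dut were at -1.16, -0.876, -1.2 and -1.02. In Okazaki fragment maturation, Fen1 was at -1.17. In single-strand binding, Rpa1 and Rpa3 were at -0.978 and -0.594. In chromatin assembly, Chaf1a, Chaf1b and Uhrf1 were at -0.993, -1.19 and -1.2. In the G1/S regulators, Ccne1 was at -1.26. All 29 were lower on day 3. The spread behind the test comes from the 2 sorts, and slide, scan and day cannot be told apart. Of the 29 calls, 28 were lost with the scanner's processed signals and 16 with the matrix values.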

How the results depend on the processing

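With the scanner's processed signals, 1 of the 41 genes (Mcm3) passed the day test and 149 of all genes were lower on day 3, the sorts called 58 genes, and the median day 3 ratio was -1.14. With the deposited matrix values, 13 of the 41 and 533 of all genes were lower on day 3, the sorts called 3 genes, and that median was -1.16. The cause was not tested. Without a filter on dim probes, 2769 of all genes were lower on day 3. With arrays fitted singly and RNA pair as a random block, the sorts called 28 genes, the deletion 247 and the day test 2752. The sorts fitted alone called 73 genes. Over the fits that leave out 1 RNA pair, the sorts called 0 to 73 genes, and the deletion 0 to 42 of the 43 genes and 0 to 6114 of all genes; there a lone RNA pair is assumed to vary like the others.

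Of the 29 genes past the day test, 28 lost the call with the scanner's processed signals and 16 with the matrix values. Dut lost it with outlier spots kept, without a filter, with probes required above background in both RNAs (where Cdc45 was not tested) and with a trended prior, which also cost Rpa3. None of the 29 reversed under the alternatives run. The prior taken over genes tested in either comparison was chosen after seeing the data. It gave 31 of the 41 and 1897 of all genes, against 29 and 1486 in the main fit.

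No paired analysis was possible because sort numbers do not pair with deletion days; within an array the 2 RNAs are already paired. A slide block was not run, since each slide held 1 RNA pair. Leaving out a sort leaves no residual degrees of freedom for the day difference.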

Other observations

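Among the 47 other replication genes, the origin recognition genes Orc3 and Orc5 and the helicase-like gene Mcm9 lay near the control on both days, at 0.05, -0.18 and -0.09 on day 3 and -0.12, -0.08 and -0.03 on day 5, as log2 ratios of deleted over control, named after their values were seen.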
